A study of Mus musculus with 9 samples.

Results

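The genes described here encode the receptor for type I interferons, the kinases and transcription factors attached to it, and 3 inhibitors of cytokine signalling. They are Ifnar1, Ifnar2, Jak1, Tyk2, Stat2, Irf9, Socs1, Socs3 and Cish. The rows were matched by symbol, and all 9 were found among the 40879 gene symbols listed in each of 9 libraries. The 9 genes and the related lists below were chosen with earlier results of these data known. All 9 also passed a filter on low counts that left 13251 genes for testing. Cish passed it through its counts in the A20iKO and WT+IFNa libraries.

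The libraries came from conventional type 2 dendritic cells (cDC2s), antigen-presenting cells that act mainly on CD4 T cells. They were sorted from mouse bone marrow that had been grown for 9 days in recombinant human Flt3L, a dendritic cell growth factor, at 100 ng/ml. There were 3 groups of 3 libraries. The A20iKO group had the genotype A20fl/fl x CD11ccre, in which a Cre recombinase driven by the CD11c promoter acts on a floxed gene for A20, an enzyme that edits ubiquitin chains and restrains NF-kB signalling. CD11c marks dendritic cells but is also made by some macrophages. The WT+IFNa group was wild type and was treated with interferon alpha (IFNa), at a dose that the labels do not give. The WT group was wild type with no treatment named in its titles. A protocol entry shared by all 9 libraries mentions IFNa on day 5, so the statement that A20iKO and WT cultures had none rests on titles and on a treatment tag. The labels give no age. Each group is described as coming from 3 mice, but not whether each library holds 1 mouse. Transcripts of Xist and of Ddx3y, a gene of the Y chromosome, were both read in every library (241 to 890.3 and 33.0 to 99.8 CPM, with CPM as defined below). If libraries of a group share mice, the p-values measure only the spread between these libraries, which may be technical.

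Type I interferons bind a receptor of a low-affinity chain, IFNAR1, and a high-affinity chain, IFNAR2. The kinase TYK2 sits on IFNAR1 and JAK1 on IFNAR2, and together they phosphorylate STAT proteins, STAT2 among them. STAT2 and IRF9 are subunits of ISGF3, the factor that switches on most interferon-stimulated genes through a DNA element called the ISRE. SOCS proteins are induced by cytokine signals and turn them down again: SOCS1 blocks JAK kinases and limits interferon responses, SOCS3 acts mainly on receptors of the gp130 family such as that of IL-6, and CIS, the product of Cish, is induced by STAT5 and limits its signal.

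Total counts were 7187359 to 9518822 in A20iKO libraries, 7041519 to 10246810 in WT+IFNa libraries and 6900598 to 10552756 in WT libraries. Levels are in CPM, in which each library's total, scaled by TMM, is set to the same size, and 1 count was worth 0.0981 to 0.149 CPM. The kit reads 1 tag at the 3' end of a transcript, so a level in CPM does not depend on transcript length and genes can be set side by side. Group levels are mean ± SD over n = 3 libraries, and p-values are from edgeR's quasi-likelihood test with Benjamini-Hochberg adjustment over all 13251 genes. A gene is called where the adjusted p is under 0.05. All 3 comparisons use the same 9 libraries in pairs of groups, so A20iKO against WT and WT+IFNa against WT share their WT libraries. In bulk RNA, fewer cells of a type and less RNA per cell cannot be told apart.

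Tnfaip3, the gene for A20, had 285, 476 and 377 counts in the libraries labelled A20iKO, 73, 84 and 74 in WT+IFNa libraries and 232, 51 and 42 in WT libraries. Its log2 fold change in A20iKO over WT was 1.95 (SE 0.515, edgeR adjusted p = 0.028), and this call was lost without A20iKO replicate 2 or 3 or WT replicate 2 or 3 (edgeR adjusted p = 0.113, 0.0645, 0.0718 and 0.0776). The deleted exons are not given, and a 3' tag outside them does not check the deletion. The defining cDC2 markers were all read: the summed level of the 6 genes was 772 to 823 CPM in A20iKO libraries, 1101 to 1211 CPM in WT+IFNa libraries and 1070 to 1629 CPM in WT libraries. Against WT, 2 of the 6 rose and 4 fell in A20iKO libraries. Sirpa and Clec4a4 rose (log2 fold change 1.42 and 2.13). Cd209a, Clec10a, Irf4 and Itgam fell (-4.90, -2.32, -1.42 and -0.87). Cd209a averaged 11.0 CPM in A20iKO and 331 CPM in WT libraries, and Sirpa 456 and 170 CPM. The Itgam call was lost without A20iKO replicate 2 or WT replicate 3 (edgeR adjusted p = 0.063 and 0.0658). Of all genes, edgeR called 5.77% higher and 4.91% lower in A20iKO against WT, and 2.4% higher and 0.702% lower with IFNa. The 8 monocyte and macrophage markers summed to 1543 to 1836 CPM in A20iKO libraries, 638 to 661 CPM in WT+IFNa libraries and 591 to 732 CPM in WT libraries, with none at 0 and 7 of 8 higher in A20iKO than in WT. The other, Adgre1, was lower (log2 fold change -1.32, edgeR adjusted p = 0.00977). Mertk, Fcgr1 and C1qa, among those higher, had 2 to 6, 2 to 24 and 5 to 59 counts in WT libraries. They passed the filter on low counts through the other groups, and the 7 include them. The 6 cDC1 markers summed to 41.7 to 71.5 CPM in A20iKO, 200.5 to 240.4 CPM in WT+IFNa and 395 to 483 CPM in WT libraries. The 9 neutrophil markers summed to 202 to 286 CPM in A20iKO, 313 to 367 CPM in WT+IFNa and 92.5 to 114 CPM in WT libraries, with Ly6g at 0 in every library. Of the 8 tested, 3 rose with IFNa, while in A20iKO against WT 2 rose (Prtn3 and Mpo, genes of granulocyte precursors) and 2 fell (S100a8 and S100a9), with a median log2 fold change of -2.76. Prtn3 and Mpo had 0 to 8 and 0 to 53 counts in WT libraries and passed the filter on low counts through other groups. The 5 pan dendritic cell markers summed to 6346 to 7503 CPM in A20iKO, 8883 to 10865 CPM in WT+IFNa and 12832 to 16296 CPM in WT libraries, and 4 of 5 fell in A20iKO against WT. H2-Ab1 and Cd74 made up most of the sum (means of 8502 and 5921 CPM in WT libraries). The Flt3 call was lost without A20iKO replicate 2 or WT replicate 3 (edgeR adjusted p = 0.0556 and 0.0545). The 5 plasmacytoid dendritic cell markers summed to 679 to 824 CPM in A20iKO, 579.6 to 596 CPM in WT+IFNa and 529 to 669 CPM in WT libraries, with 3 higher and 1 lower in A20iKO against WT. The progenitor markers Kit and Cd34 summed to 74.0 to 104 CPM in A20iKO, 20.6 to 31.5 CPM in WT+IFNa and 23.2 to 26.6 CPM in WT libraries, and both rose in A20iKO against WT. Kit made up most of the sum, with means of 23.1 CPM for Kit and 1.77 CPM for Cd34 in WT libraries. Cd34 had 7 to 28 counts there and passed the filter on low counts through other groups. Its call was lost without A20iKO replicate 2 (edgeR adjusted p = 0.0598). The part of these differences in the results below was not tested. In each group 1 library stood apart by its collagen counts, A20iKO replicate 1, WT+IFNa replicate 3 and WT replicate 2, with Col1a1 at 2720.2 to 3105 CPM against 286 to 1475 CPM in the others. The 5 calls on Stat2, Irf9 and Socs3 given below held in the fit without those of high collagen, as did the call on Ifnar1. The Tnfaip3 call in A20iKO over WT was lost in that fit (edgeR adjusted p = 0.117) and in a fit of only the 2 groups compared (0.0614).

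Among the 9 genes, the ISGF3 subunits Stat2 and Irf9 rose with IFNa, the inhibitor Socs3 rose in A20iKO libraries, Ifnar1 was higher in A20iKO than in WT+IFNa libraries, and neither kinase passed any test. With IFNa against WT, 2 of the 9 genes were higher and 0 lower, or 22.2%, where edgeR called 2.4% of all genes higher, 0.702% lower and 3.1% in either direction. By edgeR, 5 were higher and 1, Socs3, lower at an unadjusted p under 0.05, and DESeq2 called 4 higher and 1 lower. Between A20iKO and WT, 1 of 9 was higher and 0 lower, or 11.1%, against 5.77% of all genes higher, 4.91% lower and 10.7% in either direction. Here 5 were higher and 0 lower at an unadjusted p under 0.05 by edgeR, and DESeq2 called 4 higher and 0 lower. The unadjusted counts against WT, and DESeq2's count in A20iKO, include Cish, which was kept for testing only through the groups in which it is high. Between A20iKO and WT+IFNa, 2 of 9 were higher and 1 lower, or 33.3%, against 2.05% of all genes higher, 3.41% lower and 5.46% in either direction. At an unadjusted p under 0.05 by edgeR, and by DESeq2, 2 were higher and 3 lower. Of all 13251 genes, at least 1591, 2800 and 2155 had an unadjusted p under 0.05 by edgeR in these 3 comparisons. In the same order, DESeq2 called 490 higher and 210 lower, 1072 higher and 844 lower, and 497 higher and 646 lower.

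Many genes separated the groups without passing the test. The libraries of both groups did not overlap for 6 of the 9 genes in WT+IFNa against WT, 5 in A20iKO against WT and 6 in A20iKO against WT+IFNa. Both counts against WT include Cish, which was kept for testing only through the groups in which it is high. Over all genes tested the share without overlap was 18.2%, 28% and 24.6% in the same comparisons. The median log2 fold change of the 9 genes, Cish included, was 0.62, 0.53 and -0.04, against -0.02, -0.01 and 0.02 over all genes. Scaling by library size alone lowered the share of higher calls over all genes from 77.4% to 60.9% in WT+IFNa against WT, and raised it from 37.5% to 49.4% in A20iKO against WT+IFNa. That scaling moved the median of all genes to -0.15 and 0.12 in these comparisons.

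**Figure D1:**
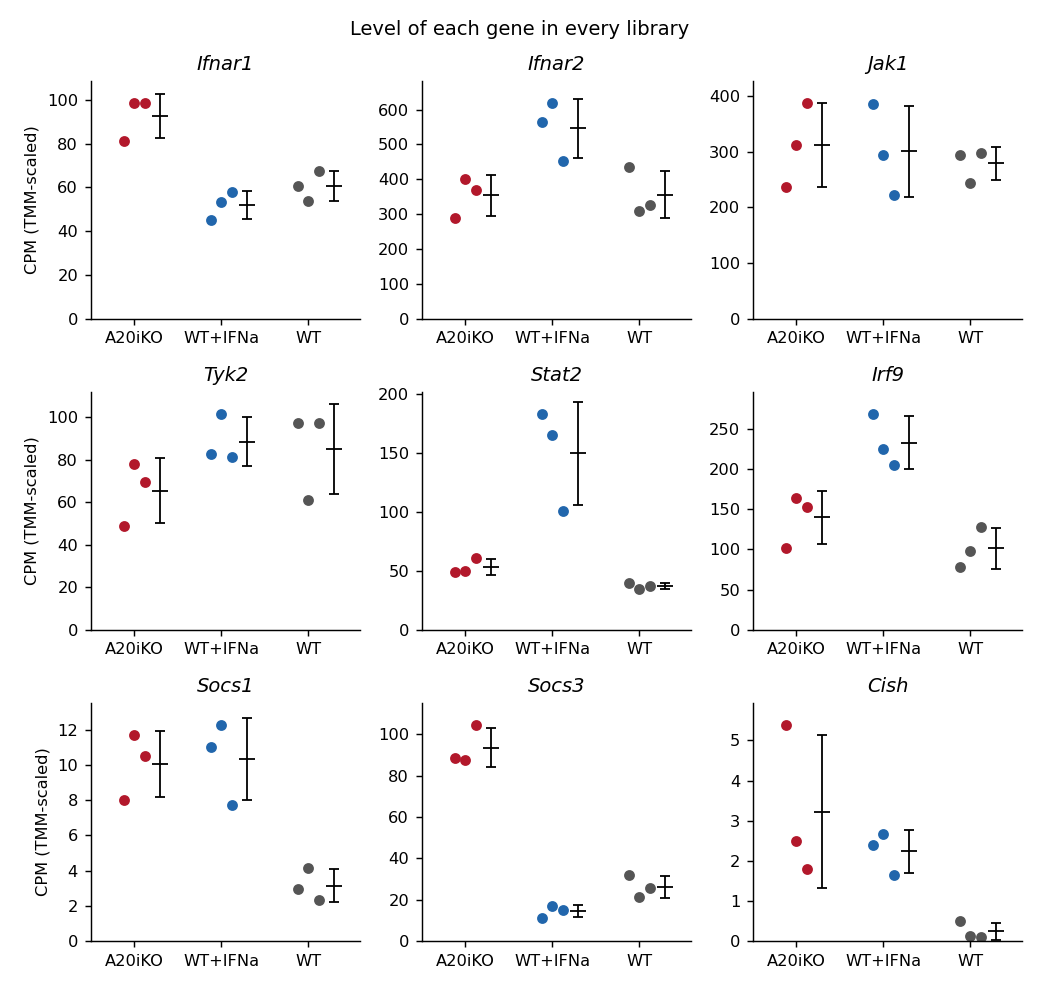
Level of each of the 9 genes in every library, in TMM-scaled CPM on a linear axis that starts at 0. Each point is 1 library, the bar beside the points is the mean ± SD of 3, and the groups run A20iKO, WT+IFNa, WT from left to right; Stat2 and Irf9 are highest in WT+IFNa libraries and Socs3 in A20iKO libraries, while the Jak1 points overlap in every pair of groups.

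The receptor chains had different patterns. Ifnar1, the chain that carries TYK2, stood at 81.2, 98.6 and 98.8 CPM in A20iKO libraries, 45.1, 53.2 and 57.8 CPM in WT+IFNa libraries and 60.9, 53.6 and 67.4 CPM in WT libraries. All A20iKO libraries were above all others, while WT+IFNa and WT libraries overlapped. Ifnar1 was 1.79-fold higher in A20iKO than in WT+IFNa libraries, a log2 fold change of 0.84 (SE 0.192, edgeR adjusted p = 0.0212). That call was lost without WT+IFNa replicate 1 or 2 or A20iKO replicate 2 or 3, where the edgeR adjusted p was 0.0822, 0.0641, 0.108 and 0.0969. Against WT the log2 fold change in A20iKO libraries was 0.61 (SE 0.191, 95% interval 0.20 to 1.03) and lay above the threshold (edgeR adjusted p = 0.0599). With IFNa it was -0.22 (interval -0.64 to 0.19, edgeR adjusted p = 0.744).

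Ifnar2, the chain that binds interferon tightly and carries JAK1, was the most abundant of the 9 genes by mean in all 3 groups. It had 288, 402 and 370.1 CPM in A20iKO libraries, 565, 619.8 and 453 CPM in WT+IFNa libraries and 434, 309.5 and 325 CPM in WT libraries. All WT+IFNa libraries lay above all others, but the lowest was close to WT replicate 1. The log2 fold change with IFNa was 0.62 (SE 0.182, interval 0.22 to 1.01), which was not past the threshold (edgeR adjusted p = 0.108). In A20iKO libraries it was -0.01 against WT (interval -0.40 to 0.38, edgeR adjusted p = 0.985) and -0.63 against WT+IFNa (interval -1.02 to -0.23, edgeR adjusted p = 0.0678). Ifnar2 overlaps the predicted gene Gm36587, which held 0 to 24 counts per library, and the strand setting of the counting is not given, so reads in the overlap are uncertain.

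Within a library, the ratio of Ifnar2 to Ifnar1 counts does not depend on any scaling. This ratio was chosen after the values were seen and is given without a test. It was 3.55, 4.08 and 3.75 in A20iKO libraries, 12.5, 11.7 and 7.85 in WT+IFNa libraries and 7.13, 5.77 and 4.82 in WT libraries. No pair of groups overlapped. Both genes lie in a cluster of class II cytokine receptor genes on mouse chromosome 16, in the order Ifnar2, Il10rb, Ifnar1 and Ifngr2 (RefSeq, GRCm38.p6). Ifngr2 encodes a chain of the interferon gamma receptor. It averaged 72.9 ± 17.1 CPM in A20iKO, 33.3 ± 4.81 CPM in WT+IFNa and 49.2 ± 11.1 CPM in WT libraries. The means of Ifngr2 and Ifnar1 had the same order, highest in A20iKO and lowest in WT+IFNa libraries. The mean of Ifnar2 was highest in WT+IFNa libraries. Il10rb averaged 43.8 ± 19.96 CPM in A20iKO, 41.3 ± 4.98 CPM in WT+IFNa and 51.8 ± 3.96 CPM in WT libraries, with no call by edgeR. Whether the cluster moved as a block was not tested.

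Of 5 other receptor chains of the interferon and IL-10 families, none passed the test with IFNa by edgeR (0 higher and 2 lower at an unadjusted p under 0.05, and 1 lower by DESeq2), 2 fell in A20iKO against WT, and 1 rose and 1 fell in A20iKO against WT+IFNa. The medians of the 5 were -0.33 with IFNa, -0.24 in A20iKO against WT and 0.09 in A20iKO against WT+IFNa on the log2 scale. Ifngr1, the ligand-binding chain of the interferon gamma receptor, averaged 135 ± 19.5 CPM in A20iKO libraries and 252 ± 33.1 CPM in WT libraries, a log2 fold change of -0.90 (SE 0.164, edgeR adjusted p = 0.00292). Il10ra, a chain of the IL-10 receptor, averaged 74.7 ± 2.83 CPM in A20iKO libraries, 134 ± 27.2 CPM in WT+IFNa libraries and 148 ± 19.9 CPM in WT libraries. It fell by 0.98 on the log2 scale in A20iKO against WT (edgeR adjusted p = 0.00379) and by 0.85 against WT+IFNa (edgeR adjusted p = 0.0168). The rise of Ifngr2 over WT+IFNa was 1.13 on the log2 scale (edgeR adjusted p = 0.0194). Both calls against WT+IFNa were lost without single libraries: for Il10ra without WT+IFNa replicate 1 or 2 or any of the A20iKO replicates (edgeR adjusted p up to 0.106), and for Ifngr2 without WT+IFNa replicate 1 or 2 or A20iKO replicate 2 or 3 (up to 0.103). Ifnlr1, the chain specific to type III interferons, had no count in WT libraries.

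The receptor kinases gave no call by edgeR or in any of the 19 other settings, and neither had an unadjusted p under 0.05. Jak1 had 236, 313 and 388 CPM in A20iKO libraries, 386, 295 and 222 CPM in WT+IFNa libraries and 294, 245 and 298 CPM in WT libraries. The groups overlapped in every pair, and the spread within the A20iKO and WT+IFNa groups was larger than the distance between group means. The 95% intervals of the log2 fold change were -0.36 to 0.58 for WT+IFNa against WT, -0.31 to 0.63 for A20iKO against WT and -0.42 to 0.52 for A20iKO against WT+IFNa. The edgeR adjusted p was 0.928, 0.761 and 0.968 in the same comparisons. The annotated Jak1 locus overlaps Raver2, which held 0 to 43 counts per library.

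Tyk2 stood at 48.8, 78.1 and 69.6 CPM in A20iKO libraries, 82.6, 102 and 81.4 CPM in WT+IFNa libraries and 97.1, 60.9 and 97.3 CPM in WT libraries. All A20iKO libraries were below all WT+IFNa libraries, and WT replicate 2 was lower than 2 of the A20iKO libraries. The log2 fold change was 0.06 with IFNa (interval -0.45 to 0.57, edgeR adjusted p = 0.972). In A20iKO libraries it was -0.38 against WT (interval -0.89 to 0.13, edgeR adjusted p = 0.403) and -0.43 against WT+IFNa (interval -0.95 to 0.08, edgeR adjusted p = 0.411).

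Stat2, the ISGF3 subunit that carries the transactivation domain, had the clearest response to IFNa. The window of 300 bases around its start, from 250 before to 50 after, is shown because it holds an ISRE core on the strand of the gene. It is chr10:128270248-128270547, plus strand, in RefSeq's GRCm38.p6, whereas the counts were made on GRCm39, so the window was matched by symbol. The capitals mark the core, TTTCNNTTTC (GAAANNGAAA on the other strand), which starts at base 29 of the window.
Stat2: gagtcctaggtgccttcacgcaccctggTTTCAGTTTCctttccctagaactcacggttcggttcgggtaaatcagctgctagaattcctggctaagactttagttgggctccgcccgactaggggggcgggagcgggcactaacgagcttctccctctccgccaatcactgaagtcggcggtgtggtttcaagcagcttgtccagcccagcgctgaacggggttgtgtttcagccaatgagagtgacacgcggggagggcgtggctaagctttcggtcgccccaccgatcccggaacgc

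Stat2 had 49.0, 50.2 and 60.9 CPM in A20iKO libraries, 183, 165 and 100.3 CPM in WT+IFNa libraries and 39.4, 34.4 and 36.8 CPM in WT libraries. The 3 groups did not overlap: WT+IFNa libraries were highest, A20iKO libraries next and WT libraries lowest. With IFNa, Stat2 rose 4.05-fold, a log2 fold change of 2.02 (SE 0.233, edgeR adjusted p = 0.000171), and ranked 77 of all genes by p. In A20iKO libraries its log2 fold change was 0.53 against WT (SE 0.227, interval 0.04 to 1.02) and was not past the threshold (edgeR adjusted p = 0.179). Against WT+IFNa it fell by 1.49 on the log2 scale in A20iKO libraries, or 2.80-fold (SE 0.228, edgeR adjusted p = 0.00162). Stat2 overlaps Apof, which held 27 to 205 counts per library, so reads in the overlap are uncertain.

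Irf9, the DNA-binding subunit of ISGF3, had 102, 164 and 153 CPM in A20iKO libraries, 269, 224 and 205 CPM in WT+IFNa libraries and 78.0, 97.5 and 128 CPM in WT libraries. All WT+IFNa libraries were above all others, while A20iKO replicate 1 lay within the WT range. Irf9 rose 2.30-fold with IFNa, a log2 fold change of 1.20 (SE 0.226, edgeR adjusted p = 0.00897). Its log2 fold change in A20iKO libraries was 0.47 against WT (interval -0.02 to 0.95, edgeR adjusted p = 0.244) and -0.73 against WT+IFNa (interval -1.22 to -0.25, edgeR adjusted p = 0.0844). Neither of the 2 windows around annotated Irf9 starts held the ISRE core searched, which says only that these letters are not in these windows.

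The ratio of Stat2 to Irf9 counts within a library, chosen after the values were seen and given without a test, was 0.481, 0.306 and 0.397 in A20iKO, 0.680, 0.735 and 0.489 in WT+IFNa and 0.506, 0.353 and 0.287 in WT, with A20iKO and WT libraries overlapping and all WT+IFNa libraries above all A20iKO libraries.

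**Figure D2:**
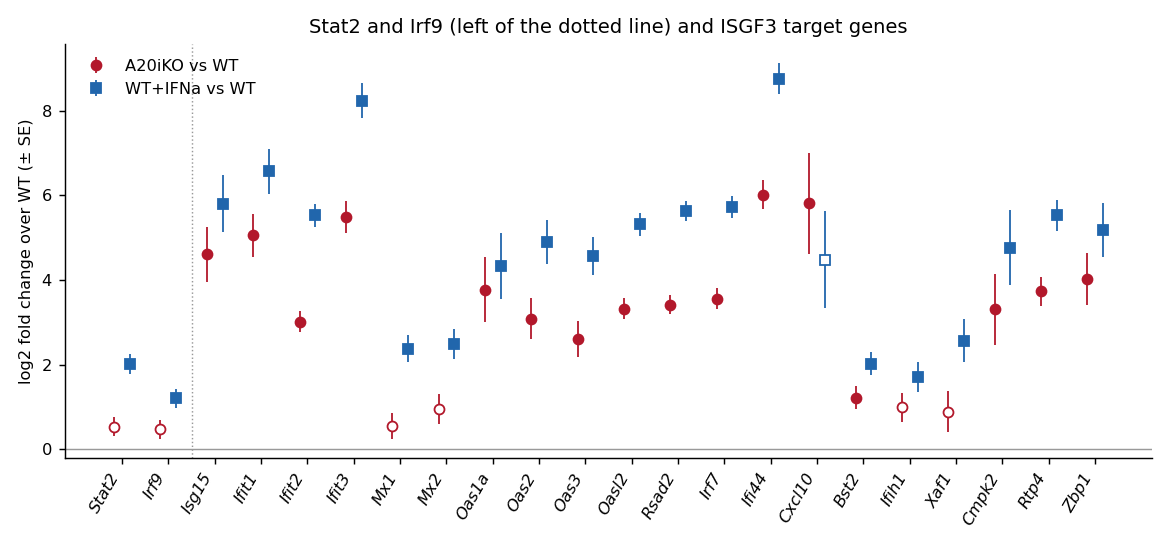
Log2 fold change over WT, with its SE from edgeR, of Stat2 and Irf9 (left of the dotted line) and of the 20 ISGF3 target genes, for A20iKO (circles) and WT+IFNa (squares). Filled points passed the test at an adjusted p under 0.05; Stat2 and Irf9 passed with IFNa and not in A20iKO, and the open squares and circles among the targets are Cxcl10 with IFNa and Mx1, Mx2, Ifih1 and Xaf1 in A20iKO.

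Of 7 other STAT and JAK genes, none passed with IFNa by edgeR (1 higher and 0 lower at an unadjusted p under 0.05, and none by DESeq2), 1 rose and 2 fell in A20iKO against WT, and 1 rose in A20iKO against WT+IFNa. Their median log2 fold changes were -0.13, 0.25 and -0.0039. Jak2, a kinase of the GM-CSF, IL-12 and interferon gamma receptors, averaged 281 ± 28.3 CPM in A20iKO libraries, 127 ± 7.00 CPM in WT+IFNa libraries and 108 ± 11.0 CPM in WT libraries. It rose in A20iKO libraries by 1.38 on the log2 scale against WT (SE 0.155, edgeR adjusted p = 7.24e-05) and by 1.14 against WT+IFNa (SE 0.154, edgeR adjusted p = 0.000655). Stat5a, which acts downstream of GM-CSF, averaged 46.7 ± 4.65 CPM in A20iKO libraries and 97.0 ± 17.9 CPM in WT libraries (log2 fold change -1.06, edgeR adjusted p = 0.0056). Stat6, the STAT of IL-4 signalling, averaged 70.5 ± 4.59 CPM in A20iKO libraries and 111 ± 14.6 CPM in WT libraries (log2 fold change -0.65, edgeR adjusted p = 0.0315). The Stat6 call was lost without WT+IFNa replicate 2, WT replicate 1 or 2 or any of the A20iKO replicates (edgeR adjusted p up to 0.128), and without the 3 libraries of high collagen (0.0703).

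ISGF3 target genes were read from a list of 20. Their summed level was 960 to 1284 CPM in A20iKO libraries, 3523 to 4358 CPM in WT+IFNa libraries and 176 to 229 CPM in WT libraries, with no overlap. With IFNa 19 rose, with a median log2 fold change of 5.04. Between A20iKO and WT 16 rose, with a median of 3.37. Between A20iKO and WT+IFNa 12 fell, with a median of -1.74. None went the other way by edgeR, at an unadjusted p under 0.05 or by DESeq2, which called 20, 17 and 14 in these comparisons. Several of the 20 were near the floor in WT libraries, with 6 to 14 counts for Ifi44, 4 to 19 for Ifit3 and 2 to 21 for Ifit1. Oas1a had 0 to 25, Cmpk2 0 to 34 and Cxcl10 0 to 8. At least 1 WT library was also low for Zbp1 (1 to 62 counts), Isg15 (3 to 96) and Oas2 (9 to 52). These genes passed the filter on low counts through the other groups, so their values against WT are a description. The counts and medians against WT include them. The exception with IFNa was the chemokine gene Cxcl10 (edgeR adjusted p = 0.0545), and the 4 not called in A20iKO against WT were Mx1, Mx2, Ifih1 and Xaf1. Cxcl10 had its highest mean in A20iKO libraries, 16.3 ± 4.99 CPM against 6.48 ± 6.13 CPM in WT+IFNa libraries (edgeR adjusted p = 0.582). Of the 12 calls between A20iKO and WT+IFNa, 4 were lost without WT+IFNa replicate 2: Ifit1, Mx2, Oas2 and Oas3 (edgeR adjusted p = 0.132, 0.0706, 0.131 and 0.0687). Those of Ifit1, Mx2 and Oas2 were also lost without WT+IFNa replicate 1 or A20iKO replicate 1 or 3. Further losses came without WT+IFNa replicate 3 for Ifit1 and Mx2, without A20iKO replicate 2 for Ifit1 and Oas2, and without WT replicate 3 for Ifit1. In the comparisons with WT, single libraries ended the calls of Ifih1 and Xaf1 with IFNa (without WT+IFNa replicate 2), and in A20iKO those of Bst2 (without A20iKO replicate 3 or WT replicate 3) and Cmpk2 (without A20iKO replicate 2 or 3 or WT replicate 1), with edgeR adjusted p up to 0.0936, 0.0628, 0.0545 and 0.0749.

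The targets with the smallest p had levels in A20iKO libraries between those of the other groups. Ifi44, an interferon-induced gene, averaged 70.6 ± 22.0 CPM in A20iKO libraries, 473 ± 35.0 CPM in WT+IFNa libraries and 1.12 ± 0.665 CPM in WT libraries. Rsad2, the gene for the antiviral enzyme viperin, averaged 66.1 ± 4.00 CPM, 308 ± 13.2 CPM and 6.22 ± 1.87 CPM in A20iKO, WT+IFNa and WT libraries. Its log2 fold change was 5.63 with IFNa, 3.41 in A20iKO against WT and -2.22 in A20iKO against WT+IFNa, with edgeR adjusted p of 3.12e-08, 9.56e-07 and 2.9e-05. Irf7, a transcription factor that amplifies interferon production, averaged 107 ± 24.0 CPM in A20iKO libraries, 476 ± 56.5 CPM in WT+IFNa libraries and 9.07 ± 2.52 CPM in WT libraries. Ifit2 and Ifit3, which encode RNA-binding antiviral proteins, averaged 37.4 ± 1.93 and 69.4 ± 8.88 CPM in A20iKO libraries, 214 ± 54.6 and 466 ± 41.3 CPM in WT+IFNa libraries, and 4.62 ± 0.832 and 1.59 ± 1.09 CPM in WT libraries. All 4 other genes named here beside Rsad2 passed in all 3 comparisons, with Ifi44 and Ifit3 near the floor in WT libraries.

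Interferon ligands were not detected in any library. All 21 type I, type II and type III interferon genes listed had 0 counts in each of the 9 libraries, a level that allows up to 0.294 to 0.446 CPM per library (3 counts, counting error only). The Ifna genes are near-identical, and how reads shared by several genes were counted is not given.

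The SOCS genes had separate patterns. Windows around the starts of Socs1, Socs3 and Cish are shown because they hold the elements through which STAT-containing factors are known to act. For Socs1 (chr16:10785487-10785786, minus strand) the capitals mark 2 overlapping ISRE cores in the orientation GAAANNGAAA, at bases 168 and 174. For Socs3 (chr11:117969317-117969616, minus strand) and Cish (chr9:107296409-107296708, plus strand) they mark the STAT-binding GAS element TTCNNNGAA, which reads the same on both strands, at base 97 in Socs3 and at bases 251 and 262 in Cish. All are from RefSeq's GRCm38.p6 and are written in the direction of the gene.
Socs1: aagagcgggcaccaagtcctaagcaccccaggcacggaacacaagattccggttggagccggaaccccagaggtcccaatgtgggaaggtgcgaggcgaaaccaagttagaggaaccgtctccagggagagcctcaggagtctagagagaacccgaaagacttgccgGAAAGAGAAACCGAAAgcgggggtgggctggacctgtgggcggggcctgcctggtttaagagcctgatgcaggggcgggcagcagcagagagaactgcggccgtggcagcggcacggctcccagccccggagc
Socs3: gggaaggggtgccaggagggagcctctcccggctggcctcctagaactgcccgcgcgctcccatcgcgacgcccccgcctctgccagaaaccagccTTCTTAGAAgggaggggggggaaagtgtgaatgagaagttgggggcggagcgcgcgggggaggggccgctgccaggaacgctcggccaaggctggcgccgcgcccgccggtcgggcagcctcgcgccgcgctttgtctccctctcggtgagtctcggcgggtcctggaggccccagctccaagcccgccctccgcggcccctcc
Cish: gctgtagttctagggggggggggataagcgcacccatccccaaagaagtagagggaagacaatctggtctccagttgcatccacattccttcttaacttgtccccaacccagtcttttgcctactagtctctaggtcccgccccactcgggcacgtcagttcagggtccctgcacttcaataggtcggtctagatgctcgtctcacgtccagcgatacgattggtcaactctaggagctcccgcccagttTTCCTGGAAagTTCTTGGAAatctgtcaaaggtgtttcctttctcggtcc

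These matches describe letters and are not evidence of binding. The ISRE core was found in 3.44% of 32851 windows of all genes, and GAS in 8.3%. Of the 10 windows of the 9 genes, the ISRE core was in those of Stat2 and Socs1, and GAS in those of Ifnar1, Ifnar2, Socs3 and Cish. An NF-kB motif, GGGNNTTTCC (GGAAANNCCC on the other strand), was in 1.63% of all windows and in none of these 10.

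Socs1 was at a low level throughout and lowest in the WT libraries. It had 8.02, 11.7 and 10.5 CPM in A20iKO libraries, 11.0, 12.3 and 7.73 CPM in WT+IFNa libraries and 2.94, 4.15 and 2.34 CPM in WT libraries. Counts were 61, 103 and 100 in A20iKO libraries, 101, 106 and 52 in WT+IFNa libraries and 30, 31 and 23 in WT libraries. All A20iKO and WT+IFNa libraries were above all WT libraries, and they overlapped each other. The log2 fold change over WT was 1.68 in A20iKO libraries (SE 0.524, interval 0.55 to 2.81) and 1.72 with IFNa (SE 0.524, interval 0.58 to 2.85). Neither was past the threshold by edgeR, with adjusted p of 0.0605 and 0.125, and both were past it by DESeq2 (adjusted p = 0.0226 and 0.045). Between A20iKO and WT+IFNa the log2 fold change was -0.04 (interval -1.13 to 1.06, edgeR adjusted p = 0.993), and its sign changed with the scaling.

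Among the 9 genes, Socs3 had the smallest p between A20iKO and WT+IFNa libraries. It had 88.7, 87.5 and 105 CPM in A20iKO libraries, 11.0, 16.7 and 15.2 CPM in WT+IFNa libraries and 31.7, 21.3 and 25.7 CPM in WT libraries. The groups did not overlap, with A20iKO libraries highest and WT+IFNa libraries lowest. Socs3 rose 3.56-fold in A20iKO over WT libraries, a log2 fold change of 1.83 (SE 0.248, edgeR adjusted p = 0.000327). It was 6.55-fold higher in A20iKO than in WT+IFNa libraries, a log2 fold change of 2.71 (SE 0.258, edgeR adjusted p = 3.87e-05), and ranked 38 of all genes by p in that comparison. With IFNa its log2 fold change was -0.88 (SE 0.248, interval -1.41 to -0.34), which edgeR did not call (adjusted p = 0.0905). DESeq2 called it (adjusted p = 0.0392), as did edgeR with library size alone (log2 fold change -0.98, adjusted p = 0.0467).

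Socs3 counts exceeded Socs1 counts at least 5.13-fold in A20iKO and WT libraries and at most 1.96-fold in WT+IFNa libraries. The ratio of Socs3 to Socs1 counts, also chosen after the values were seen, was 11.1, 7.49 and 9.92 in A20iKO libraries, 1.00, 1.36 and 1.96 in WT+IFNa libraries and 10.8, 5.13 and 11.0 in WT libraries. WT+IFNa libraries were below all others, and A20iKO and WT libraries overlapped. In the order of mean levels of the 9 genes, Socs3 was 4th in A20iKO libraries and 7th in WT+IFNa and in WT libraries.

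Cish was the least abundant gene. It had 41, 22 and 17 counts in A20iKO libraries, 22, 23 and 11 in WT+IFNa libraries and 5, 1 and 1 in WT libraries. These are 5.39, 2.50 and 1.79 CPM in A20iKO libraries, 2.40, 2.67 and 1.63 CPM in WT+IFNa libraries, and 0.490, 0.134 and 0.102 CPM in WT libraries. All A20iKO and WT+IFNa libraries were above all WT libraries, and A20iKO and WT+IFNa libraries overlapped. Summed over libraries and per total count, the ratio to WT was 12.0 in A20iKO libraries (95% counting interval 5.57 to 30.8) and 8.26 in WT+IFNa libraries (3.76 to 21.5), intervals that leave out the spread between libraries. With that spread, the log2 fold change was 3.64 in A20iKO libraries (SE 1.30, interval 0.83 to 6.45, edgeR adjusted p = 0.102) and 3.12 with IFNa (SE 1.27, interval 0.36 to 5.87, edgeR adjusted p = 0.304). Because Cish passed the filter on low counts only through the A20iKO and WT+IFNa libraries, these values against WT are a description.

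**Figure D3:**
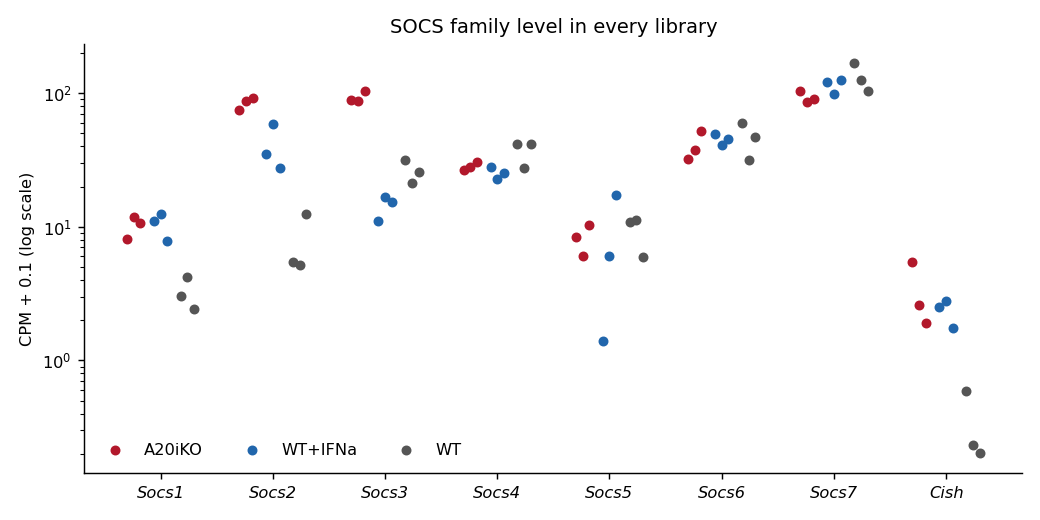
Level of the SOCS family genes in each library, as CPM plus 0.1 on a log axis, with A20iKO, WT+IFNa and WT from left to right for each gene and 1 point per library. Socs2 and Socs3 are highest in A20iKO libraries, Socs1, Socs2 and Cish are lowest in WT libraries, and Socs4, Socs5 and Socs6 overlap between all pairs of groups.

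Of 15 other inhibitors of JAK-STAT signalling, 2 rose with IFNa, 3 rose and 1 fell in A20iKO against WT, and 1 rose in A20iKO against WT+IFNa, with median log2 fold changes of 0.04, -0.12 and -0.15. Socs2, which limits growth hormone and STAT5 signalling, had 74.4, 87.5 and 91.8 CPM in A20iKO libraries, 34.8, 58.2 and 27.3 CPM in WT+IFNa libraries and 5.39, 5.08 and 12.4 CPM in WT libraries. It rose by 3.46 on the log2 scale in A20iKO libraries (SE 0.392, edgeR adjusted p = 7.75e-05) and by 2.39 with IFNa (SE 0.379, edgeR adjusted p = 0.0027). The groups did not overlap, and the difference between A20iKO and WT+IFNa, 1.08, was not past the threshold (edgeR adjusted p = 0.116). Usp18, which removes ISG15 from proteins and damps signalling at IFNAR2, averaged 48.7 ± 14.2 CPM in A20iKO libraries, 127 ± 20.4 CPM in WT+IFNa libraries and 6.38 ± 4.95 CPM in WT libraries. It rose by 4.29 on the log2 scale with IFNa and by 2.91 in A20iKO libraries (edgeR adjusted p = 0.000154 and 0.00114).

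By edgeR, Socs4, Socs5, Socs6 and Socs7 passed no test. Ptpn1, a phosphatase of JAK2 and TYK2, averaged 363 ± 32.5 CPM in A20iKO libraries, 227 ± 25.9 CPM in WT+IFNa libraries and 195 ± 27.7 CPM in WT libraries. It rose by 0.89 on the log2 scale in A20iKO against WT (edgeR adjusted p = 0.00231) and by 0.68 against WT+IFNa (edgeR adjusted p = 0.0228). The call against WT+IFNa was lost without WT+IFNa replicate 1 or 3 or A20iKO replicate 2 or 3 (edgeR adjusted p up to 0.116). Sh2b3, the gene for the JAK2 inhibitor LNK, averaged 50.8 ± 5.07 CPM in A20iKO libraries and 92.0 ± 20.6 CPM in WT libraries (log2 fold change -0.86, edgeR adjusted p = 0.0351). That call was lost without WT replicate 1 or 3 or any of the A20iKO replicates (edgeR adjusted p up to 0.124).

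Genes listed as sharing inducers with the SOCS genes went in several directions, and which factors drove them in these cells was not tested. Of 8 genes listed as driven by STAT5 or as encoding GM-CSF receptor chains, 2 rose with IFNa, 3 rose in A20iKO against WT, and 2 rose and 1 fell in A20iKO against WT+IFNa. Their median log2 fold changes were -0.11, 0.67 and 0.41. Ccnd2, which encodes cyclin D2, averaged 301 ± 39.4 CPM in A20iKO libraries, 926 ± 133 CPM in WT+IFNa libraries and 212 ± 29.5 CPM in WT libraries, and it passed with IFNa and between A20iKO and WT+IFNa (edgeR adjusted p = 4.76e-06 and 6.5e-05). Csf2rb, the common beta chain of the GM-CSF receptor, averaged 665 ± 88.4 CPM in A20iKO libraries, 318 ± 4.66 CPM in WT+IFNa libraries and 372 ± 72.8 CPM in WT libraries. It rose by 0.84 on the log2 scale against WT and by 1.07 against WT+IFNa (edgeR adjusted p = 0.00457 and 0.00165). Its near-identical paralog Csf2rb2 was called in the same comparisons, and reads shared by the pair are uncertain. Those Csf2rb2 calls were lost without A20iKO replicate 2 or 3, and against WT+IFNa also without any of its replicates (edgeR adjusted p up to 0.106). The cytokine gene Osm was called in both comparisons with WT (edgeR adjusted p = 0.039 with IFNa and 0.0357 in A20iKO). The Osm call with IFNa was lost in each of the 9 fits that left out 1 library, and that in A20iKO in 7 of them (without WT+IFNa replicate 1 or 3, WT replicate 2 or 3 or any A20iKO replicate).

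Of 7 genes listed as driven by STAT3 or as encoding gp130 cytokine receptor chains, 6 were tested. By edgeR none passed with IFNa (1 higher and 1 lower at an unadjusted p under 0.05, and 1 higher by DESeq2), 2 rose and 2 fell in A20iKO against WT, and 2 rose in A20iKO against WT+IFNa. Their median log2 fold changes were -0.10, -0.39 and -0.29. Bcl3, an NF-kB cofactor, averaged 188 ± 42.1 CPM in A20iKO libraries, 74.1 ± 12.6 CPM in WT+IFNa libraries and 43.2 ± 3.08 CPM in WT libraries. It rose by 2.12 on the log2 scale in A20iKO against WT (edgeR adjusted p = 2.77e-05) and by 1.34 against WT+IFNa (edgeR adjusted p = 0.00162). Saa3, an acute-phase gene, averaged 664 ± 87.6 CPM in A20iKO libraries, 22.2 ± 16.3 CPM in WT+IFNa libraries and 15.8 ± 16.1 CPM in WT libraries (edgeR adjusted p = 0.00038 against WT and 0.00132 against WT+IFNa). Il6st, which encodes gp130 itself, averaged 75.0 ± 12.3 CPM in A20iKO libraries and 166 ± 29.3 CPM in WT libraries, a log2 fold change of -1.15 (edgeR adjusted p = 0.00813). Junb, a subunit of AP-1, had a log2 fold change of -0.63 in A20iKO against WT (edgeR adjusted p = 0.0314), a call lost without WT replicate 1 or 3 or any of the A20iKO replicates (edgeR adjusted p up to 0.14).

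**Figure D4:**
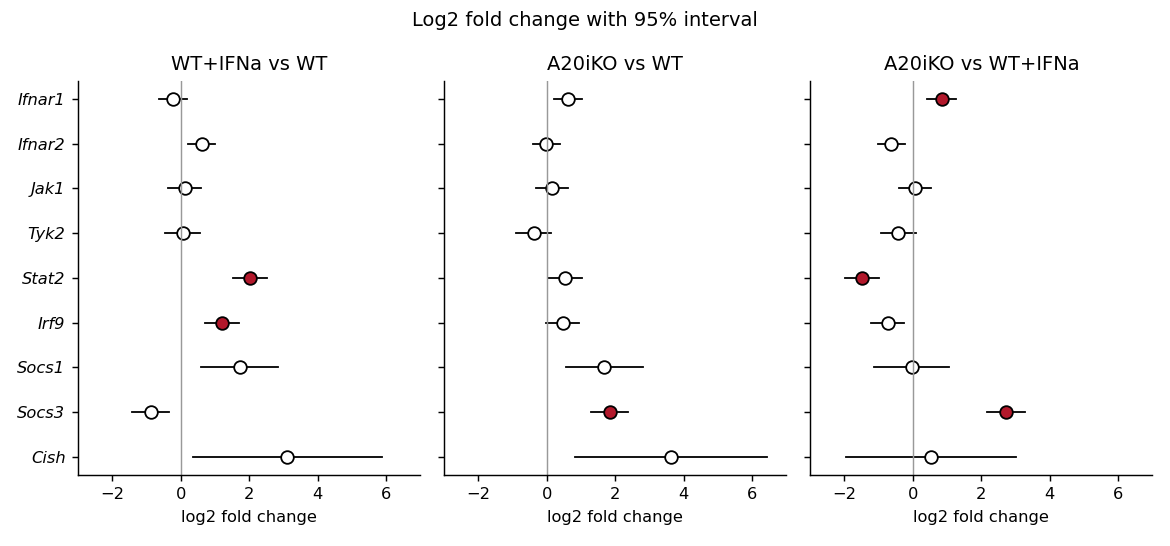
Log2 fold change of each of the 9 genes in the 3 comparisons, with its 95% interval from edgeR. Filled points passed the test at an adjusted p under 0.05. The 6 calls are Stat2 and Irf9 in WT+IFNa against WT, Socs3 in A20iKO against WT, and Ifnar1, Stat2 and Socs3 in A20iKO against WT+IFNa.

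The order of mean levels was similar at the top in the 3 groups. Ifnar2 was first and Jak1 second in each, and Socs1 and Cish were last. In A20iKO libraries the order was Ifnar2, Jak1, Irf9, Socs3, Ifnar1, Tyk2, Stat2, Socs1 and Cish, and neighbours overlapped between Ifnar2 and Jak1, between Irf9 and Socs3, between Socs3 and Ifnar1 and between Tyk2 and Stat2. In WT+IFNa libraries it was Ifnar2, Jak1, Irf9, Stat2, Tyk2, Ifnar1, Socs3, Socs1 and Cish, with overlap between Jak1 and Irf9, Stat2 and Tyk2, and Socs3 and Socs1. In WT libraries it was Ifnar2, Jak1, Irf9, Tyk2, Ifnar1, Stat2, Socs3, Socs1 and Cish, with overlap between Irf9 and Tyk2 and between Tyk2 and Ifnar1.

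For the 4 genes called in at least 1 comparison, the genes of most similar pattern were found by Pearson's r of log2(CPM + 1) over the 9 libraries, among 8157 genes with a mean of at least 10 CPM. They describe likeness across 3 groups that share depth and scaling, with no test. Stat2 was most like Tor1aip1, Ccnd2 and Phf11b (r = 0.986, 0.983 and 0.973). Irf9 was most like H2-T24, Nap1l1 and Slc29a3 (r = 0.976, 0.972 and 0.959). Socs3 was most like Hmgn1, Idh2 and Prkcb (r = 0.985, 0.983 and 0.978). Ifnar1 was most like Ptbp1, Atp5b and Clec4a1 (r = 0.988, 0.975 and 0.974).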

How the data were processed

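RNA was measured by QuantSeq 3' mRNA FWD sequencing in 9 libraries of sorted cDC2s, 3 per group, grouped and numbered by their titles. The files hold deposited raw counts, whole numbers by gene symbol, with no normalization. Per the submitters' processing notes, the tools named are fastp 0.23.1, STAR 2.7.10b, Bowtie2 and featureCounts 2.0.6 and the build is GRCm39. Their roles, the annotation, the strand setting and the counting of multi-mapping reads are not given in these sources. Shared or overlapping reads can therefore change single genes.

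Counts were analysed in R 4.3.3. The edgeR 4.0.16 function filterByExpr (a minimum of 10 counts, and 15 in total) left 13251 genes with 99.6% to 99.9% of each library's counts. One quasi-likelihood fit held all 9 libraries, with TMM scaling and 6 residual degrees of freedom, and gave 3 comparisons with Benjamini-Hochberg adjustment over all genes kept. Standard errors of log2 fold changes come from the F statistic, and intervals are 95%. The intervals use edgeR's total degrees of freedom, which add to the 6 residual ones those borrowed from the spread over all genes. The common biological coefficient of variation was 0.554. Libraries of a group differed beyond sampling noise (chi-square per degree of freedom 14.4 to 64.2) and each counted as 1 replicate. The most abundant gene, Gm26917, took 5.21% to 17.3% of counts. Intervals of counts and floors of 3 counts cover counting error only. The procedure was also tested on simulated data.

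All 9 genes are named. Of each related list, up to 4 called genes of smallest p per comparison are named, and 3 genes of most similar pattern per called gene. The genes, lists and rule were chosen with earlier results of these data known. A gene of a related list is not reported here. Alternatives were RLE factors, library size alone, DESeq2 1.42.0, limma 3.58.1 (voom), other filters, pairs of groups, the replicate block and leaving out libraries. Promoter windows came from RefSeq (GRCm38.p6) by symbol, for 9 of 9 genes.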

Additional observations from a re-analysis of the deposited data

How the results depend on the processing

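The 9 genes in 3 comparisons were refitted under 19 other settings, 9 of them leaving out 1 library, which gave 513 values: 468 kept call and direction, 4 lost a call, 23 gained one and 18 changed sign. Stat2 and Irf9 with IFNa, Socs3 in both A20iKO comparisons and Stat2 in A20iKO against WT+IFNa kept their calls in all 19. The lost call was that of Ifnar1 in A20iKO against WT+IFNa. Calls gained included Ifnar2 in A20iKO against WT+IFNa in 8 settings and Irf9 there in 4. The sign changes were all of values not called. In WT+IFNa against WT, Jak1 was -0.019 with library size alone and -0.13 to 0.29 without single libraries, and Tyk2 was -0.052 with library size alone, -0.074 without the high-collagen libraries and -0.14 to 0.16 without single libraries. In A20iKO against WT, Ifnar2 was 0.026 without the high-collagen libraries and -0.12 to 0.16 without single ones, and Jak1 was -0.027 to 0.33. In A20iKO against WT+IFNa, Jak1 was -0.14 to 0.30, Socs1 was 0.058 with library size alone and -0.21 to 0.10 without single libraries, and Cish was -0.24 without the high-collagen libraries and -0.060 to 0.81 without single ones. The cause of these changes was not tested.

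Counts of the 9 genes called moved as follows. With IFNa, DESeq2 called 4 higher and 1 lower, library size alone 1 lower, and fits without single libraries 2 to 3 higher. In A20iKO against WT, 2 were higher with RLE factors, 4 with DESeq2 and 2 with voom. In A20iKO against WT+IFNa, 3 were lower with DESeq2, voom, no filter or only the 2 groups, 2 without the high-collagen libraries, and without single libraries 1 to 2 were higher and 1 to 2 lower. Over all genes with IFNa, DESeq2 gave 490.0 higher and 210.0 lower, library size alone 184 lower and no filter 164 lower, and without single libraries 225 to 319 were higher and 43 to 107 lower. In A20iKO against WT these ran from 478 to 750.0 higher and 439 to 683 lower. In A20iKO against WT+IFNa they ran from 145 to 352 higher and 227 to 523 lower, with 497 higher by DESeq2, 430.0 with no filter and 469 with only the 2 groups.

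With the replicate block, the counts of the 9 genes were 2 higher with IFNa, 1 higher in A20iKO against WT, and 2 higher and 1 lower in A20iKO against WT+IFNa, and 45 genes in all were lower with IFNa. Of 9 same-number pairs, 1 had a correlation of deviations over 0.1 (-0.37 to 0.24), so the numbers were not taken to pair the libraries. With 3 libraries a group and Socs1 and Cish at low counts, their intervals are wide.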
